A study of Rattus norvegicus with 8 samples.

Results

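Collagen genes other than those of cartilage were taken as all rat probes of the array whose gene name is that of a collagen chain, leaving out Col2a1, Col9a1, Col9a2, Col9a3 and Col11a2. They came to 39 genes of the 34912 gene names on the array, measured by 72 probes. The cells were osteoblast-like cells released by enzymes from calvariae of Wistar rats 3 to 5 days old. In the irradiated group (n = 4) the medium was taken off and the cells received Er:YAG laser light at 3.3 J/cm2 for 60 s, and in the non-irradiated group (n = 4) they received none. RNA was collected 6 h later from both groups, in osteoinduction medium, and each culture was hybridized to 1 one-color array. Cultures carried the replicate numbers 1 to 4 in both groups, and an array was compared with the array of the same number.

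Collagens are secreted or membrane-bound proteins whose chains wind around each other in a triple helix, and the helix can form only where glycine recurs at a fixed step along each chain. Fibrillar chains build the cross-striated fibrils that give bone its tensile strength, with type I as the main protein of bone matrix. Type IV chains form the network of basement membranes, and Col15a1 and Col18a1 lie beside that network. The remaining chains include the microfilaments of type VI, the networks of types VIII and X, chains that sit on the surface of fibrils, and chains that cross the cell membrane. The 39 genes were divided accordingly into 9 fibrillar genes, 8 basement membrane genes and 22 others.

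The glycine repeat can be read in some of the probes themselves. A glycine codon at every step of 9 bases, with no stop codon in that frame and at most 1 missing step, was found in 6 of the 72 probes, of which 3 were tested. Over all rat probes the same search found 10 (0.0219%). The tested ones are shown because each belongs to a gene whose probes had fold changes of opposite sign, and the capitals mark the glycine codons.
Col22a1 probe A_44_P1155570: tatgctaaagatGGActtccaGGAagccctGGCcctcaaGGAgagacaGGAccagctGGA
Col23a1 probe A_44_P1147698: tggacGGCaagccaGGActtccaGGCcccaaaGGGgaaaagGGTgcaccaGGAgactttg
Col4a6 probe A_64_P390391: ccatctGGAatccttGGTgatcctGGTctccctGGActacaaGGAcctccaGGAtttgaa
In the array's rn4 annotation these lie at chr7:109510107-109510166 on the minus strand, chr10:37064934-37067076 on the plus strand and chrX:37482127-37482186 on the plus strand. The Col23a1 probe spans 2143 bases of the genome with 60 bases of its own, so it joins separate exons. The repeat places all 3 in coding sequence of the helix.

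Signals are given as log2 of the processed spot signal after quantile normalization, so a difference of 1 is a doubling. A probe was tested where every array of a group, irradiated or not, showed it well above background. This held for 50 probes of 30 genes, and 43 of these probes were above background on all 8 arrays. No probe of Col4a3, Col4a4, Col6a5 or Col28a1 was above background on any array. Col4a3 and Col4a4 encode the chains of specialized basement membranes such as that of the kidney glomerulus. The other 5 genes without a tested probe were Col10a1, Col13a1, Col24a1, Col25a1 and Col6a6.

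Col10a1, the network collagen that marks hypertrophic chondrocytes, was at the edge of detection. Its probe A_44_P201201 was not well above background on any non-irradiated array and was so on 3 of the 4 irradiated arrays. The irradiated mean was 3.98. It includes signal that was not well above background, so no fold is given. The measured non-irradiated mean was 3.26. The probe failed the filter and was not among the tested ones, and the second Col10a1 probe was below background on all 8 arrays.

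The arrays of replicate 1 stood apart from the rest before any question of irradiation. The 5 cartilage collagens, all tested, were lower there on both arrays. Col2a1, the fibrillar chain of cartilage, measured 9.84, 15.29, 15.82 and 15.07 on the non-irradiated arrays of replicates 1 to 4. On the irradiated arrays it measured 10.23, 14.68, 15.88 and 15.11. The 5 genes were lower in replicate 1 than in the mean of the other numbers by between 36.8-fold for Col9a3 and 54.1-fold for Col9a1 on the brightest tested probe of each. Their other tested probes were lower by 3.19-fold and 12.1-fold for Col11a2 and 81.7-fold for Col9a1. The second Col9a3 probe was lower there as well, but was not above background on 1 irradiated array, so no fold is given for it. Some results are therefore also given without replicate 1. All 8 arrays lay on 1 slide. Irradiated arrays were in columns 2 and 4 and non-irradiated arrays in columns 1 and 3, so slide position and irradiation cannot be told apart. Replicates 1 and 2 lay in row 1 and replicates 3 and 4 in row 2, each in its own neighboring columns. Slide position and replicate number cannot be told apart either.

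Irradiation was not followed by a change in any collagen gene that passed the test. The comparison asked whether low-level laser light alters transcripts of bone cells 6 h later. With limma and Benjamini-Hochberg adjustment over 26355 probes, 0 of 50 collagen probes and 0.0% of all probes had an adjusted p below 0.05. The smallest adjusted p was 0.9999 among the collagens and among all probes. Without adjustment, 2 collagen probes were higher and 1 was lower at p below 0.05, against 1.4% of all probes higher and 1.13% lower. Both higher probes entered the test through the irradiated arrays alone, being above background on 2 of 4 non-irradiated arrays, so nothing is read from the count. With all 8 arrays required above background, 1 collagen probe had a p below 0.05, a lower one, against 1.78% of all probes. The median log2 fold change was 0.0096 over the collagen probes and -0.0036 over all tested probes, and the median size of the change, regardless of sign, was 0.082 and 0.081. Of the 43 collagen probes above background on all 8 arrays, 22 had a fold change above 0 and 21 below, against 47.9% above 0 over all such probes. Of the 7 others, 6 entered through the irradiated arrays alone, 5 of them with a fold change above 0, and 1 entered through the non-irradiated arrays alone, so these signs depend in part on the filter.

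**Figure D1:**
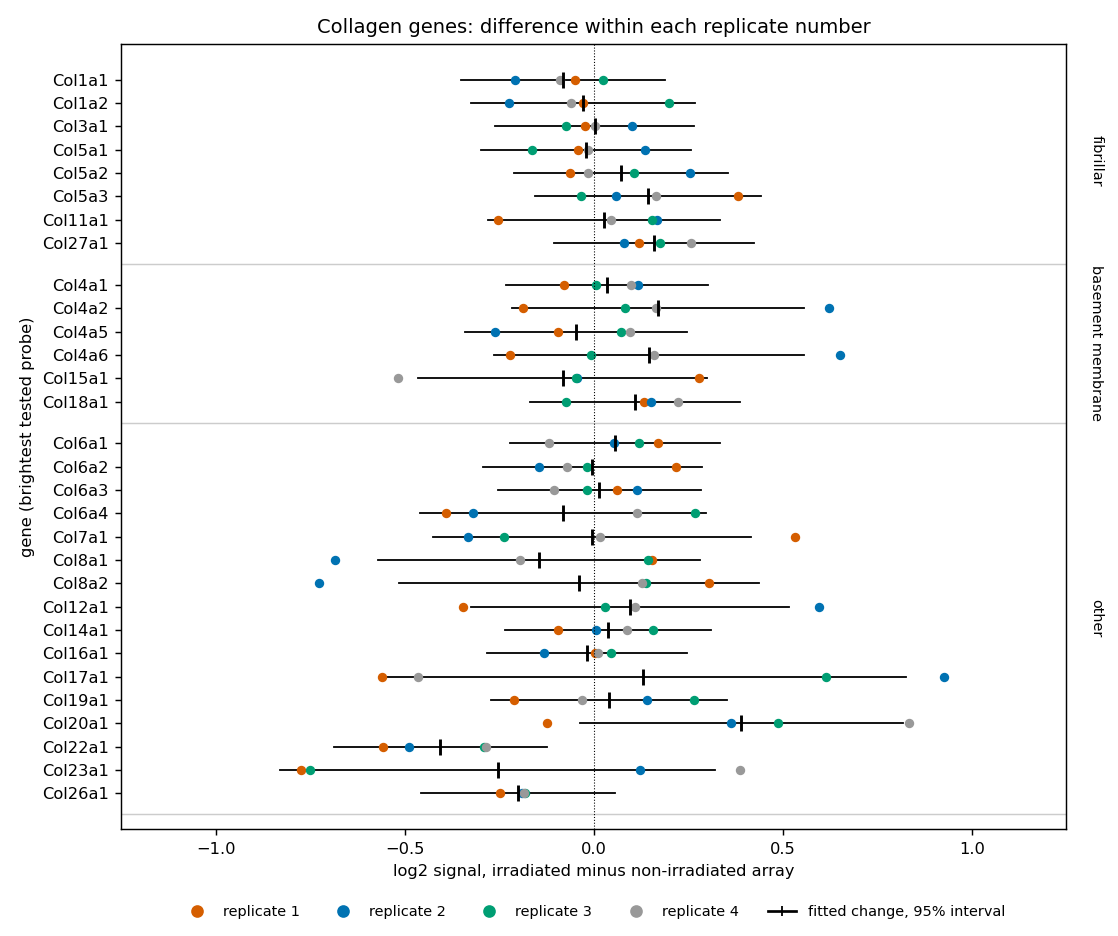
Difference in log2 signal between the irradiated and the non-irradiated array of each replicate number (colored points) for the brightest tested probe of 30 collagen genes, with the fitted change and its 95% interval in black. The interval of Col22a1 lies below 0, between -0.69 and -0.12, and those of the other genes shown include 0.

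On the brightest tested probe of each gene, fibrillar genes had the lowest median SD of the pair differences of the classes, at 0.13. It was 0.25 for basement membrane genes, 0.27 for the others and 0.31 over all tested probes. The other tested fibrillar probes had SDs of 0.19 for Col1a1, 0.10 for Col5a2, 0.51 for Col5a1 and 1.15 for Col27a1. Whether the class value follows signal level was not tested. Col1a1, the main chain of type I collagen, measured 18.24, 18.12, 18.21 and 18.29 on non-irradiated arrays and 18.19, 17.91, 18.24 and 18.20 on irradiated arrays. The groups overlapped, and the irradiated array of replicate 2 was the lowest of the 8. Its log2 fold change was -0.081, with a 95% interval from -0.35 to 0.19. Col1a2, which supplies the other chain of type I, changed by -0.028 with an interval from -0.32 to 0.27. Col3a1, the type III chain that mixes with type I in young tissue, had a fold change of 0.0020 with an interval from -0.26 to 0.27. The sign turned without replicate 2 for Col1a2 and Col3a1. These intervals reach about 0.3 on either side, so smaller changes were not resolved.

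Type V and type XI chains sit inside thicker fibrils and set their diameter. The log2 fold changes were -0.021 for Col5a1, 0.071 for Col5a2, 0.14 for Col5a3 and 0.028 for Col11a1, and each was smaller than the half-width of its 95% interval. With a replicate left out, Col5a1 and Col11a1 changed sign, Col5a2 ranged from 0.0098 to 0.12 and Col5a3 from 0.063 to 0.20. Col11a1 is shared between cartilage and other tissues. It measured between 15.27 and 15.74 on non-irradiated arrays and between 15.32 and 15.89 on irradiated arrays, with replicate 1 inside the range of the others. Col27a1, a fibrillar chain of developing skeleton, measured 10.00, 9.85, 10.62 and 9.49 on non-irradiated arrays and 10.12, 9.93, 10.80 and 9.75 on irradiated arrays. It was higher on the irradiated array in 4 of 4 pairs, by 0.16 in the fit (interval -0.11 to 0.42), and by -0.044 on the average of its probes. It was the only one of 50 collagen probes with that pattern (2.0%), which 3.55% of all probes showed. Its second probe, A_64_P136377, fell below background on 1 irradiated array, entered through the non-irradiated arrays alone and had a fold change of -0.25 (interval -1.27 to 0.77).

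Among basement membrane chains, Col4a1 and Col4a2, which join in the most widespread type IV molecule, had log2 fold changes of 0.035 and 0.17. Without replicate 1 they were 0.073 and 0.29, and without replicate 2 they were 0.0081 and 0.021. Their pair differences were -0.080, 0.12, 0.0068 and 0.098 for Col4a1, and -0.19, 0.62, 0.084 and 0.16 for Col4a2. Replicate 1 was the only pair in which both chains were lower on the irradiated array. Col4a5 and Col4a6, partners on the X chromosome, changed by -0.047 and 0.15. Col15a1 had a fold change of -0.083, and Col18a1, whose end piece is released as endostatin, of 0.11. Col4a5 and Col4a6 changed sign without replicate 2, and Col15a1 without replicate 4. None had an unadjusted p below 0.05.

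The 3 chains of type VI collagen, the beaded microfilament around cells, had log2 fold changes of 0.056 for Col6a1, -0.0037 for Col6a2 and 0.014 for Col6a3. Col12a1 and Col14a1, which coat the surface of fibrils, changed by 0.096 and 0.039. Col16a1, another chain of fibril surfaces, changed by -0.018. Col8a1, a network chain made around blood vessels, had a fold change of -0.15. Its pair difference was -0.69 in replicate 2 and between -0.19 and 0.15 in the other pairs. Each of these 7 genes changed sign under at least 1 alternative.

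Col22a1 had fold changes of opposite sign on its probes. The gene encodes a chain found at tissue junctions such as that of muscle and tendon. The probe in the helix, whose sequence is given above, measured 5.80, 5.51, 5.67 and 5.61 on non-irradiated arrays. On irradiated arrays it measured 5.24, 5.02, 5.37 and 5.33. The groups did not overlap, and the irradiated array was lower in 4 of 4 pairs. The log2 fold change was -0.41 with an unadjusted limma p of 0.0126 and an adjusted p of 0.9999. Only 2 of 50 collagen probes (4.0%) were lower in 4 of 4 pairs, which 3.98% of all probes were. The other Col22a1 probe, A_44_P1037456 at chr7:109509402-109509461, measured 5.13, 4.63, 3.78 and 3.95 on non-irradiated arrays. On irradiated arrays it measured 5.02, 5.36, 4.42 and 4.77. All 4 irradiated arrays but only 2 non-irradiated ones showed it above background, and it was higher in 3 of 4 pairs. It entered the test through the irradiated arrays alone, and its fold change of 0.52 rests in part on signals that were not above background. That change was 0.13 with normexp background correction, 0.18 with the deposited log2 values and between 0.43 and 0.73 with a replicate left out. For the probe in the helix the values were -0.19, -0.31 and between -0.45 and -0.35. The difference between the probes was not tested. Which of the probes reports the transcript more faithfully was not tested.

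Col23a1, a chain that crosses the cell membrane, had 1 probe above background on all 8 arrays and 2 tested probes that were not. Probe A_64_P097892, at chr10:37087702-37087761, measured 4.02, 5.01, 3.70 and 3.46 on non-irradiated arrays. On irradiated arrays it measured 4.99, 4.85, 4.72 and 4.11. Only 2 non-irradiated arrays showed it above background, against all 4 irradiated ones. It too entered the test through the irradiated arrays alone. The log2 fold change was 0.62, resting in part on signals that were not above background, and the adjusted p was 0.9999. The third tested probe, A_44_P456479, with a fold change of 0.36, entered in the same way, being above background on 3 non-irradiated arrays. The probe in the helix, above background on all 8, had a fold change of -0.25, and between -0.47 and -0.080 with a replicate left out. With normexp background correction the change of the probe in the helix was -0.12 and that of A_64_P097892 was 0.093. With the deposited log2 values the change of A_64_P097892 was 0.060.

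Col26a1, first described in testis and ovary, was the other gene lower in 4 of 4 pairs. Its probe A_64_P015482 measured 10.26, 7.83, 7.49 and 6.61 on non-irradiated arrays and 10.01, 7.64, 7.31 and 6.42 on irradiated arrays. The groups overlapped, since replicate numbers differed far more than the arrays of a pair. The pair differences lay between -0.25 and -0.18, and the fold change was -0.20 with an unadjusted limma p of 0.105. The sign was not kept with the deposited log2 values (0.027) or on the average of its probes (0.043). Its second probe, A_64_P142837, had a fold change of 0.29 and entered through the irradiated arrays alone, being above background on 3 non-irradiated arrays. Col20a1, a chain related to those of fibril surfaces, had a fold change of 0.39 with an unadjusted p of 0.0665, and was higher in 3 of 4 pairs. With a replicate left out it was between 0.24 and 0.56, with the deposited log2 values 0.18 and with the probes of the gene averaged 0.22. Its second tested probe, A_43_P22039, had a fold change of 0.054.

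**Figure D2:**
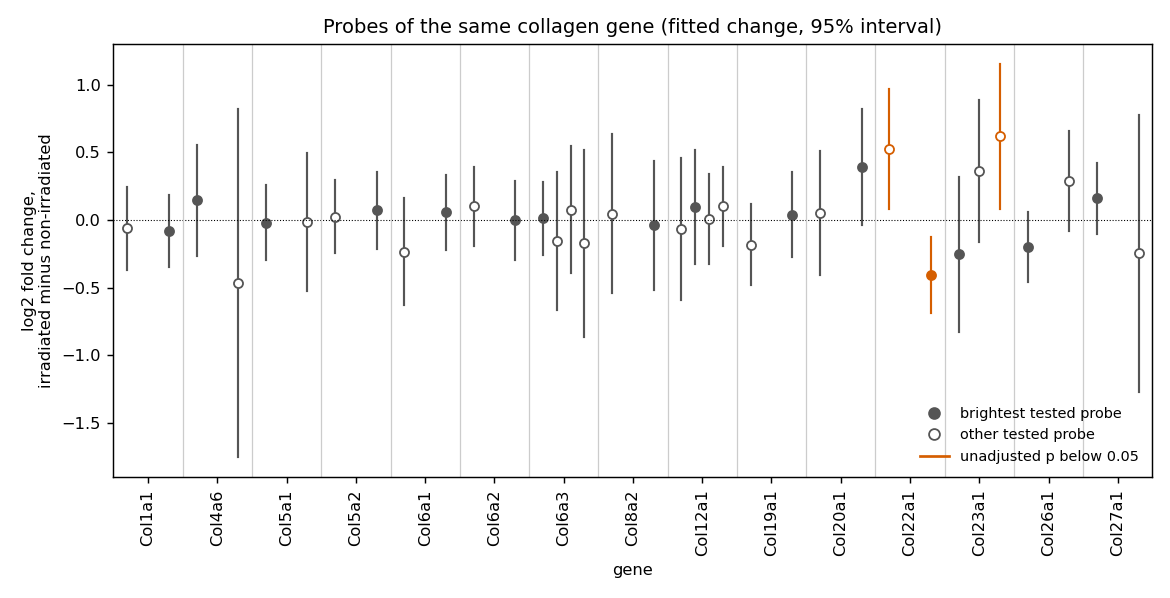
Fitted log2 fold change with its 95% interval for each tested probe of the 15 collagen genes with 2 or more tested probes. Filled points are the brightest tested probe of a gene, open points its other probes, and the 3 orange probes, of Col22a1 and Col23a1, had an unadjusted p below 0.05. The 2 of them with positive changes entered the test through the irradiated arrays alone.

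With probes above background on all 8 arrays only, 11 collagen genes had 2 or more tested probes, and 7 of these had fold changes of both signs. The spread between probes of a gene then had a median of 0.17. It was 0.020 for Col1a1, whose probes had the same sign in all 4 pairs. It was 0.0077 for Col5a1, but the pair differences of its probes had opposite signs in all 4 pairs, at -0.041, 0.14, -0.16 and -0.015 against 0.41, -0.76, 0.14 and 0.15. It was 0.61 for Col4a6. The Col4a6 probe in the helix varied widely between arrays, with pair differences of -1.84, 1.26, -1.50 and 0.21, while the other tested probe A_64_P062810 differed by -0.22, 0.65, -0.0082 and 0.16.

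The classes were set side by side by the median log2 fold change of 1 probe a gene, the tested probe with the highest mean signal. The median was 0.015 over the 8 tested fibrillar genes, 0.072 over the 6 tested basement membrane genes and -0.0043 over the 16 other genes, against -0.0036 over all probes. Above 0 were 5 of 8 fibrillar genes, 4 of 6 basement membrane genes and 7 of 16 others. In pairs 1 to 4 the class medians were -0.034, 0.091, 0.066 and -0.0063 for fibrillar genes. They were -0.088, 0.13, -0.00072 and 0.13 for basement membrane genes, and -0.11, -0.063, 0.082 and -0.010 for the others. Over all tested probes the medians were -0.064, 0.085, -0.013 and 0.0014, so part of the class values in pairs 1 and 2 was shared by the whole array. Taking the difference between class medians within each pair and then the mean over pairs, basement membrane minus fibrillar was 0.014 ± 0.094 (SD over 4 pairs). It was 0.068 ± 0.12 against the other genes, and the fibrillar median exceeded that of the other genes by 0.054 ± 0.077. Each of these differences was smaller than its SD, and none was tested. For fibrillar, basement membrane and other genes the medians were 0.037, 0.087 and -0.014 without replicate 1, -0.0045, 0.014 and 0.013 without replicate 2, and -0.0075, -0.0060 and 0.019 with every gene taken as the average of its probes, so the order of the classes was not kept.

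Chains that assemble into the same molecule were also compared pair by pair. Col1a1 and Col1a2 had differences of -0.050 and -0.028 in replicate 1, -0.21 and -0.22 in replicate 2, 0.025 and 0.20 in replicate 3, and -0.090 and -0.060 in replicate 4. The signs matched in all 4 pairs, although neither gene changed beyond its error. Those of Col4a1 and Col4a2, given above, also matched in all 4. How often chains of different molecules match in sign was not counted, so nothing is read from these matches. Col4a5 and Col4a6 had opposite signs in replicate 2, at -0.26 and 0.65, and in replicate 3, at 0.073 and -0.0082. The type V chains Col5a1, Col5a2 and Col5a3 shared a sign in replicate 2 only, on 1 probe a gene. Col8a1 and Col8a2, the chains of type VIII, differed by -0.69 and -0.73 in replicate 2, while in replicate 4 they had opposite signs, -0.19 and 0.13. The other tested Col8a2 probe, A_44_P553316, differed by 0.83 in replicate 2 and by -0.65 in replicate 1, against -0.73 and 0.31 for the first, so the match rests on 1 probe. For Col6a1, Col6a2 and Col6a3 the differences were 0.17, 0.22 and 0.063 in replicate 1 and -0.12, -0.070 and -0.10 in replicate 4. The signs did not match in replicate 2, with 0.054, -0.14 and 0.11, or in replicate 3, with 0.12, -0.018 and -0.018. Where they matched, it was on 1 probe a gene, and the other tested probes went both ways. In replicate 1 those of Col6a3 differed by -0.46 (A_43_P20052), -0.33 (A_44_P1155252) and 0.68 (A_44_P1363281). The other probes of Col6a1 and Col6a2 differed by 0.21 and 0.085 there. In replicate 4 the Col6a3 probes differed by -0.49, 0.022 and -0.072 in the same order, and those of Col6a1 and Col6a2 by -0.59 and 0.027.

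Replicate numbers differed in a few collagen genes, and this was a larger difference than any that went with irradiation. The F-test of limma over the replicate numbers gave an adjusted p below 0.05 for 4 of 50 collagen probes (8.0%) and for 3.37% of all probes. The 4 genes were Col4a1, Col18a1, Col26a1 and Col6a3. All 4 were higher in replicate 1 than in the other numbers.

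Col4a1 (probe A_64_P149501, chr16:83157776-83157835) measured 16.06, 14.41, 14.07 and 14.18 on non-irradiated arrays and 15.98, 14.53, 14.07 and 14.28 on irradiated arrays. Both arrays of replicate 1 lay above all others, by 3.39-fold over the mean of the other numbers, with an F of 67.3 and an adjusted p of 0.0110. Its partner Col4a2 (A_42_P633958, chr16:82900301-82900360) measured 9.68, 8.05, 8.16 and 8.46 on non-irradiated arrays and 9.49, 8.67, 8.25 and 8.63 on irradiated arrays. It was 2.32-fold higher in replicate 1, with an adjusted p of 0.0654, which missed the threshold.

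Col4a1 and Col4a2 lie head to head, and in RefSeq (GRCr8) their transcription starts are separated by 76 bases on chr16:84885521-84885596. This stretch is shown, on the plus strand, because the chains on its sides were both higher in replicate 1.
Col4a1 and Col4a2 start region: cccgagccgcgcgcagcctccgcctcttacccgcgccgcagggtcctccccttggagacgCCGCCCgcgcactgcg
Capitals mark the only match to GGGCGG, the core of the GC box, which reads on the minus strand. CCAAT was searched as well, on both strands, and had no match between the starts, though the Col4a1 window of 250 bases before to 50 bases after the start holds one. In windows of that size GGGCGG occurs in 33.1% of 33469 promoters and CCAAT in 37.5%. Promoter windows were found for 32 of the 39 genes, and GGGCGG is in those of 18 genes and CCAAT in those of 11. These matches describe letters only, and binding at them was not measured.

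Col18a1 (A_44_P1004323, chr20:11981417-11981476) measured 10.08, 9.25, 9.07 and 8.34 on non-irradiated arrays and 10.21, 9.40, 8.99 and 8.57 on irradiated arrays. Replicate 1 was the highest and replicate 4 the lowest in both groups (F-test adjusted p 0.0234). The Col26a1 probe given above, at chr12:21049507-21049566, had the largest F of the 50 collagen probes outside cartilage, 216.7, with an adjusted p of 0.0023. It was 7.56-fold higher in replicate 1 than in the mean of the others. Its second probe did not follow, with replicate 1 minus the mean of the others at -0.30 (adjusted p 0.254). Col6a3 (A_43_P11175, chr9:89965077-89965136) measured 17.41, 16.53, 16.69 and 16.06 on non-irradiated arrays and 17.48, 16.65, 16.67 and 15.96 on irradiated arrays. It was 2.03-fold higher in replicate 1 (adjusted p 0.0333). With 1 probe a gene, Col27a1, Col4a2, Col8a1 and Col16a1 came next by F, with adjusted p of 0.0529, 0.0654, 0.0792 and 0.0810. Other probes of Col19a1 and Col6a3 had 0.0639 and 0.0718. Of the remaining Col6a3 probes, A_44_P1363281 did not follow, with pair means of 9.69, 8.99, 9.69 and 9.45 (adjusted p 0.498). A_43_P20052 had an adjusted p of 0.0894. Col1a1 and Col1a2 lay at the other end, with 0.605 and 0.772.

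**Figure D3:**
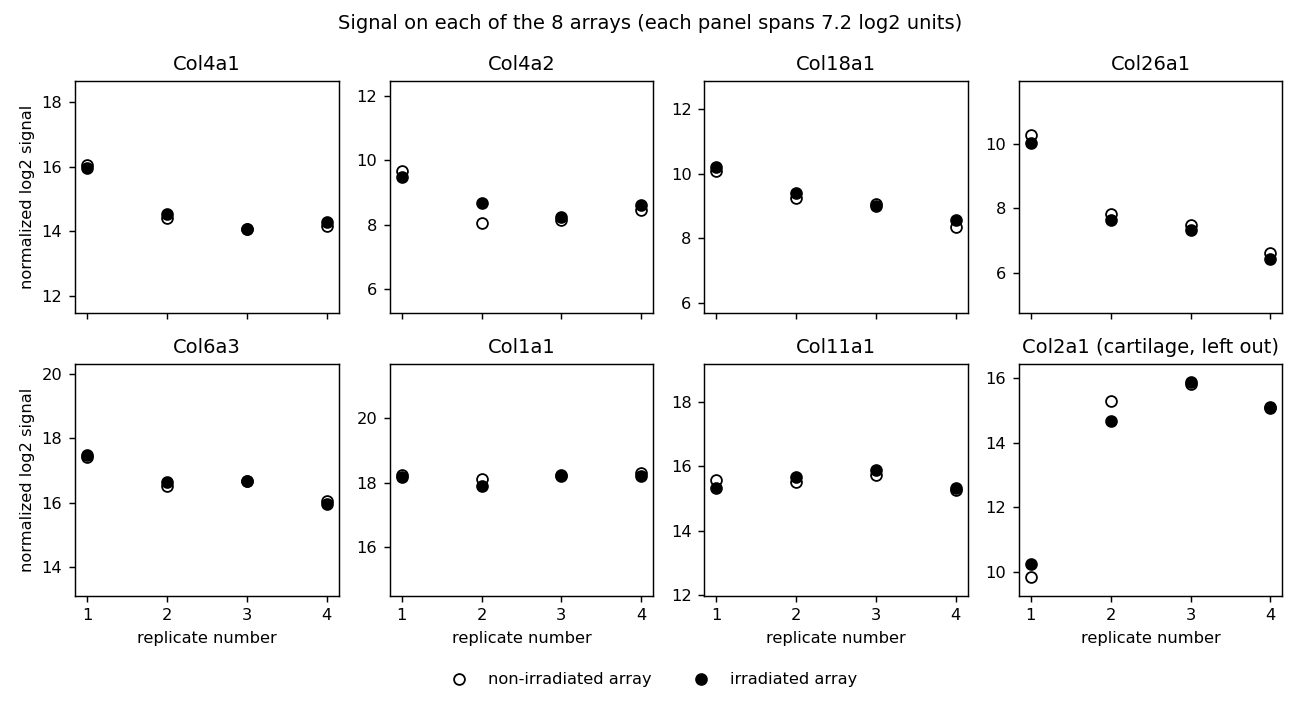
Normalized log2 signal on each non-irradiated (open) and irradiated (filled) array by replicate number, with 1 panel for each gene and the same span of log2 units in every panel. Col4a1, Col4a2, Col18a1, Col26a1 and Col6a3 were highest in replicate 1, Col1a1 and Col11a1 stayed level, and Col2a1, a cartilage collagen, was lowest there.

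These calls depended on which arrays entered the fit. Without replicate 1, the F-test called 0 of 50 collagen probes and 0.0% of all probes. Without replicate 2 it called 22 collagen probes and 21.2% of all probes, among them 4 of 12 fibrillar, 4 of 7 basement membrane and 14 of 31 other probes. Without replicate 3 it called 1 (0.421% of all probes) and without replicate 4 also 1 (0.395%), Col26a1 in both cases. The irradiated array of replicate 2 resembled non-irradiated replicate 1 more than its own partner, with a correlation of deviations across probes of 0.439 against 0.0542.

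By class, the pair mean of replicate 1 minus the mean of the other pairs had a median of 1.03 over basement membrane genes, 0.21 over fibrillar genes and 0.46 over the others. Over all probes it was 0.0042. Replicate 1 was above the others in 4 of 6, 6 of 8 and 13 of 16 genes, and in 50.4% of all probes. The order depended on the classes chosen. With type IV alone as basement membrane the medians were 0.33 over 4 basement membrane genes and 0.55 over 18 others, with 2 and 15 genes above. Col4a5 and Col4a6 went the other way, at -0.55 and -0.64, while Col4a1 and Col4a2 stood at 1.76 and 1.22. The Col4a6 value is that of its brightest probe, and the probe in the helix stood at 1.15, so the direction for Col4a6 depended on the probe. The SD between pair means had a median of 0.38 over the collagen probes and 0.25 over all probes, while the SD of the pair differences had medians of 0.28 and 0.31.

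**Figure D4:**
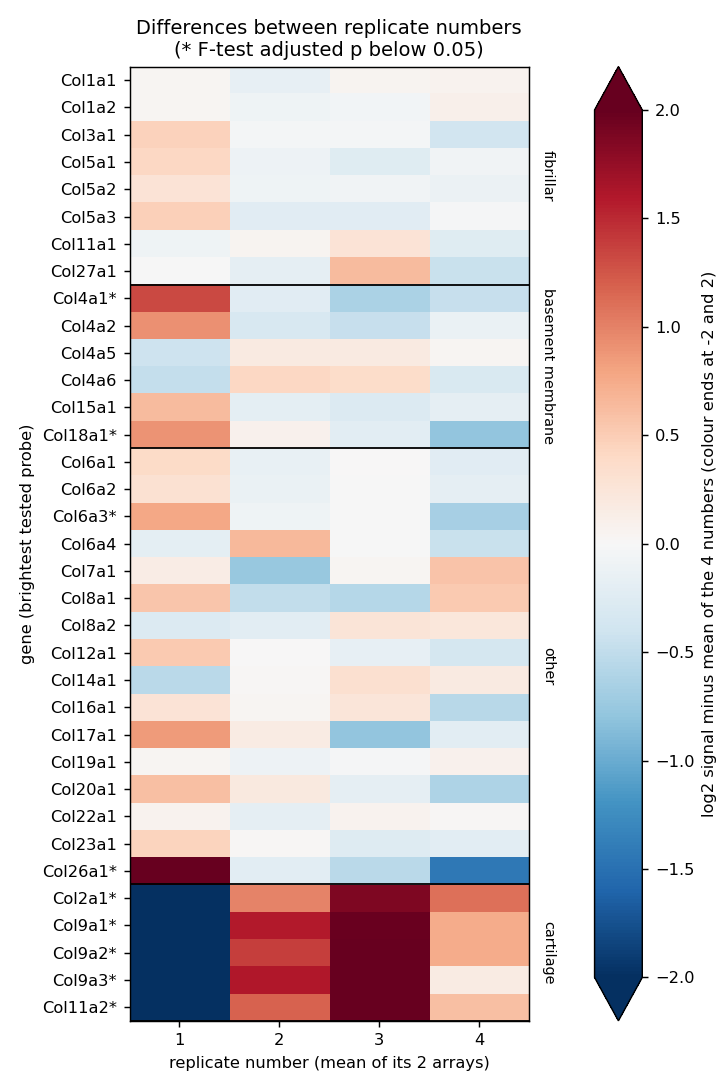
Mean log2 signal of the arrays of each replicate number minus the mean of the 4 numbers, for 30 collagen genes by class and for the 5 cartilage collagens. Red is above and blue below the mean, stars mark an F-test adjusted p below 0.05, and replicate 1 is the highest for the starred genes outside cartilage and the lowest for the cartilage genes.

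Some markers of other cell types also differed between replicate numbers, in an F-test that 3.37% of all probes passed. Of 7 tested chondrocyte markers, 5 passed the F-test, all lower in replicate 1. The log2 of the summed signal of that list was 12.24, 16.97, 17.56 and 16.45 on non-irradiated arrays and 12.04, 17.12, 17.69 and 16.42 on irradiated arrays, its brightest gene was Col9a1, and no marker on the array was below background on all arrays. Osteoblast markers passed for 2 of 9, Alpl and Bglap, both higher in replicate 1, with a summed signal between 14.82 and 15.27 on the 8 arrays and Spp1 as the brightest. Both were also lowest in replicate 4, with pair means of 10.74, 10.34, 10.32 and 8.51 for Alpl and 8.81, 8.02, 8.20 and 6.85 for Bglap. Endothelial markers passed for 2 of 5, Kdr and Tek, at 2.39-fold and 3.94-fold higher in replicate 1 than in the mean of the others. The summed signal of the list was 13.26, 13.67, 12.80 and 12.78 on non-irradiated arrays and 12.98, 14.15, 13.09 and 12.87 on irradiated arrays, highest in replicate 2 and not in replicate 1. Kdr had pair means of 9.32, 9.31, 7.64 and 7.24 and Tek of 8.02, 6.10, 5.76 and 6.28. Vwf was the brightest of them, with replicate 1 minus the mean of the others at -0.22, and Emcn was below background on all arrays. Skeletal muscle markers passed for 1 of 5, Myh3, at 10.7-fold higher in replicate 1, with a summed signal of 11.43 and 11.01 on the arrays of replicate 1 and between 8.30 and 9.73 on the others. Macrophage and leukocyte markers passed for 1 of 4, Lyz2, at 4.75-fold higher in replicate 1, with Cd14 the brightest and a summed signal between 10.15 and 10.76. Smooth muscle and pericyte markers passed for 1 of 5, Myh11, which was higher in replicate 1. Myh11 was above background on 7 of 8 arrays, so no fold is given. Cspg4 was the brightest of that list, and its summed signal lay between 14.37 and 14.97. Epithelial markers passed for 1 of 3, Cdh1, which was lower in replicate 1, with a summed signal between 7.70 and 9.56 and Epcam below background on all arrays. In these bulk samples fewer cells of a type and less RNA per cell cannot be told apart, and the part of cell makeup in the collagen differences was not tested. None of the marker genes passed the test of irradiation.

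No tested gene for proteins that make or bind collagen passed the test of irradiation. Of 27 tested genes of collagen synthesis and processing, 0 passed, 16 had a fold change above 0 and 11 below, and the median was 0.023. Serpinh1, the chaperone of the collagen helix, had a fold change of -0.059, the lysyl oxidase Lox of -0.042 and Loxl4 of 0.20, which was higher in 4 of 4 pairs with an unadjusted limma p of 0.151. Of 8 tested collagen receptors, 0 passed and the median was 0.051, with Itgb1 at 0.10 and Itga2, which pairs with it to bind collagen, at 0.31. Of the 5 cartilage collagens 0 passed and the median was 0.062. In the F-test of replicate numbers 1 of the 27 passed, against 3.37% of all probes, namely Adamts2, which removes the leading propeptide of fibrillar collagens and was 2.85-fold higher in replicate 1. Of the 8 receptors Itga2 passed, at 5.24-fold higher in replicate 1.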

How the data were processed

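Spot intensities of 8 Agilent one-color arrays were deposited, extracted with Agilent Feature Extraction 11.0.1.1 per the submitters' processing notes and already corrected for background. A table of 24029 quantile-normalized log2 values per array was deposited too, every row of it matched a probe, and it served as an alternative. Each array held 58717 spots of rat probes, with a median processed signal between 56.2 and 84.8, and precision is limited by having 4 arrays a group.

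Processed signals were set to log2 and quantile normalized, 446 to 690 outlying spots an array were left out, and spots of a probe were averaged. A probe passed the filter where over 50% of its spots were well above background on all 4 arrays of a group. Of 26356 such probes, 26355 could be fitted with limma 3.58.1 in R 4.3.3 (lmFit and eBayes, two-sided, replicate number as a block, Benjamini-Hochberg adjustment). The replicate coefficients of that fit gave the F-test. The fit was tested on simulated data. Classes and lists were summarized with pandas 2.3.3 and not tested.

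The replicate numbers pair the arrays because same-numbered arrays carry the same animal number in the names given to the scans. The paper names limma for the arrays and states no pairing of them in its text. The moderated t in its own table of array results is nevertheless that of paired differences, so its model included the replicate number. Deviations from group means correlated within pairs 1 to 4 at 0.608, 0.0542, 0.571 and 0.749 over 26250 probes, which are not independent replicates. Pair 2 had the lowest value, and whether its arrays share an origin was not tested. Results that turn on replicate 2 rest on that pairing. The slide could not be a block, since there was 1 slide and 1 scan.

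Genes named are a list of main collagen chains, those with an unadjusted p below 0.05 on a tested probe, the 5 largest fold changes and the 8 largest F by 1 probe a gene, and the partner chains compared pair by pair. The members and lists were chosen with earlier results of these data known. Signals of different probes were compared only to take the brightest probe of a gene or list, and they do not measure relative abundance. Probe positions are those of the array (rn4), and exon annotation was not used. As alternatives, signals were scaled to the 75th percentile or corrected by normexp with an offset of 50. The others were different filters, outlying spots kept, the deposited log2 values, trend and robust estimation, probes of a gene averaged, no block, type IV alone as basement membrane, and each replicate left out.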

Additional observations from a re-analysis of the deposited data

Results flagged for a closer look

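The irradiated array of replicate 2 was low for Col1a1, at 17.91 in log2 units, while the other irradiated arrays lay between 18.19 and 18.24 and its non-irradiated partner measured 18.12. The irradiated array of replicate 3 was low for the Col23a1 probe in the helix, at 5.32, with the other irradiated arrays between 5.94 and 6.04 and its partner at 6.07. The non-irradiated array of replicate 1 was low for Col8a2, at 10.49, with the other non-irradiated arrays between 11.07 and 11.11 and its irradiated partner at 10.80. In all 3, the gap to the nearest array took up more of the group's range than Dixon's 95% critical value for 4 samples allows. This held for 3 of 52 groups (5.77%), and chance alone gives about 5%.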

How the results depend on the processing

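No alternative gave a collagen probe with an adjusted p below 0.05 for irradiation, and the class medians moved by less than their SD over pairs in each. Collagen probes with an unadjusted p below 0.05 numbered 3 (2.53% of all probes), and 1 with normexp (0.926%), with all 8 arrays required above background (1.78%), with the deposited log2 values (1.22%) and with no replicate block (0.933%), 0 with the probes of a gene averaged (2.48%), 6 with no filter (3.64%), and 1 to 6 with a replicate left out (1.48% to 5.34%). The fit without the block changed no other call. Collagen probes called between replicate numbers were 4 (3.37% of all probes), and 7 with scaling to the 75th percentile (4.47%), 9 with normexp (5.9%), 1 with no filter (0.184%), 10 with the deposited log2 values (7.21%), 12 with trend and robust estimation (5.46%), and 0 to 22 with a replicate left out (0.0% to 21.2%).

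Of 356 fold changes of named genes under an alternative, 34 changed sign, and none had passed the test. With the probes of a gene averaged they were Col22a1 at 0.059, Col23a1 at 0.24, Col26a1 at 0.043, Col27a1 at -0.044, Col4a6 at -0.16, Col8a2 at 0.0033, Col6a1 at -0.088, Col6a2 at 0.049 and Col6a3 at -0.059, where the other probes of the gene enter. With the deposited log2 values they were Col16a1 at 0.0011, Col26a1 at 0.027, Col6a2 at 0.0050 and Col6a3 at -0.0072. Normexp gave Col3a1 -0.0024 and Col6a2 0.0021, and the 75th percentile gave Col6a2 0.031. With a replicate left out the ranges were -0.019 to 0.12 for Col11a1, -0.070 to 0.24 for Col12a1, -0.0012 to 0.083 for Col14a1, -0.20 to 0.063 for Col15a1, -0.039 to 0.020 for Col16a1, -0.10 to 0.037 for Col1a2, -0.031 to 0.027 for Col3a1, -0.095 to 0.024 for Col4a5, -0.024 to 0.27 for Col4a6, -0.073 to 0.027 for Col5a1, -0.078 to 0.043 for Col6a2, -0.020 to 0.053 for Col6a3, -0.25 to 0.034 for Col8a1 and -0.15 to 0.19 for Col8a2. The sign was kept but the value ranged from -0.12 to -0.039 for Col1a1, 0.070 to 0.17 for Col18a1, 0.0081 to 0.073 for Col4a1, 0.021 to 0.29 for Col4a2, 0.0098 to 0.12 for Col5a2, 0.063 to 0.20 for Col5a3 and 0.018 to 0.11 for Col6a1. For the remaining differences the cause was not tested. Probes near background, such as those of Col22a1 and Col23a1, have the least signal to compare.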
